A study of Mus musculus with 11 samples.

Results

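Complex I is the first enzyme of the mitochondrial respiratory chain. It takes electrons from NADH, passes them along a chain of iron-sulfur clusters in its peripheral arm to ubiquinone, and pumps protons through its membrane arm. Its core subunits carry the electrons or pump the protons, its accessory subunits surround the core, and assembly factors help to build it without staying in the finished enzyme. Photoreceptors are among the cells with the highest energy demand, and their inner segments are packed with mitochondria. The transcripts described here are those of the nuclear genes with symbols Ndufa, Ndufb, Ndufc, Ndufs, Ndufv, Ndufab or Ndufaf followed by a number, restricted to protein-coding genes that reached 1 CPM (counts scaled to library size) in 5 or more of the 11 libraries. Of 51 matching symbols 46 belong to protein-coding genes, and all 46 passed the filter, out of 15767 genes that did. They comprise 36 subunits (7 core subunits, 9 accessory subunits of the peripheral arm, 19 of the membrane arm, and Ndufab1, the acyl carrier protein found in both arms), 8 assembly factors (Ndufaf1 to Ndufaf8), and Ndufa4 and Ndufa4l2. These last genes carry the family name only, since Ndufa4 is now regarded as a subunit of complex IV and Ndufa4l2 is its hypoxia-inducible relative. Ndufb1 was not analysed here.

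RNA was measured in eyes labelled as freed of lens and cornea, taken at 1 to 2 months of age from 5 wild-type (WT) mice and 6 miR-211-/- (KO) mice labelled with a C57BL/6 background (C57Bl/6J in the study's methods). The KO line lacks the precursor of miR-211 in every cell, and the WT mice were littermates. KO mice were all male and WT mice were of both sexes, and the study's methods also list a comparison of males alone. No label gives the sex behind a WT library, so that genotypes were not compared within males here, and the part of sex in the differences was not tested. Between 20282241 and 36317673 read pairs were assigned to genes in a library. Values per library are given as CPM on TMM-scaled library sizes, levels of different genes are compared as FPKM, which is scaled by gene length, and the error is the SD over 5 WT or 6 KO libraries unless stated otherwise. Mir211 was counted at 0 in all 11 libraries, WT included, so that these counts do not check the deletion, whereas Trpm1, its host gene, was read at no less than 331 CPM in WT and 405 CPM in KO libraries.

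Libraries differed in markers of other tissues, and the complex I transcripts moved with some of these markers, as given below. Rod, cone and RPE markers, which define the labelled tissue, were read in every library. Summed over 8 skeletal muscle markers, none of which was at 0, the level ran from 1082 to 8427 CPM in WT and from 875 to 8385 CPM in KO libraries. Of the 8 adipocyte markers 6 passed the filter, and the sum of all 8 ran from 13.2 to 437 CPM in WT and from 12.2 to 229 CPM in KO libraries. Lens markers summed to 78649 CPM in WT replicate 4, 22450 CPM in KO replicate 3 and 3123 CPM in KO replicate 6, against 8.84 to 68.8 CPM in the other 8 libraries. The 6 markers of cornea and conjunctiva, none at 0, summed to 1195 to 7667 CPM in WT and 1606 to 8872 CPM in KO libraries, and Krt12, a keratin of the corneal epithelium, ran from 4.25 to 3033 CPM in WT and from 598 to 3507 CPM in KO libraries. The libraries also fall into 2 series by the names under which the study lists them, with a mouse number (WT replicates 1 and 2, KO replicates 1, 2 and 3) or with an age (WT replicates 3, 4 and 5, KO replicates 4, 5 and 6). The sums of cornea and conjunctiva markers were 3266 to 8872 CPM in the mouse-number series, and 1195 to 2421 CPM in the age series except for WT replicate 4 at 7353 CPM. What else sets these series apart is not labelled. In bulk tissue, fewer cells of a type and less RNA per cell cannot be told apart.

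Mouse miR-211-5p is a mature arm of the precursor that the KO lacks as a whole. It has the same seed (bases 2 to 8, in capitals) as miR-204-5p, which the KO retains. Both mature sequences are from RefSeq (GRCm38.p6) and are shown because the seed is what the 3′ UTRs of the complex I transcripts were searched for.
mmu-miR-211-5p (chr7:64205831-64205852, + strand): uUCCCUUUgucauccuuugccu
mmu-miR-204-5p (chr19:22750610-22750631, + strand): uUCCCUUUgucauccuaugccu
The complement of this seed, AAAGGGA, was found in the 3′ UTR of 0 of the 46 genes, taking for each gene the transcript with the longest coding sequence (Gencode M21). Among all 14552 tested protein-coding genes, 14.7% had a match. The complex I genes have short 3′ UTRs, with a median of 130.5 bases (from 36 to 4012) against 969.5 bases for all genes. Among the 1222 tested genes with a 3′ UTR no longer than the median of 130.5 bases, 0.655% had a match. The median of these 1222 genes was 66 bases, so that they were not matched in length to the 46. When every protein-coding transcript was searched, a choice made after the data had been seen, 1 of the 46 genes had a match, Ndufa11, against 17.7% of all genes. The match lies in a 3′ UTR of transcript ENSMUST00000233233.1 and is shown with the bases around it, the match in capitals.
Ndufa11 (GRCm38, chr17:56721801-56721826, + strand): tctcttgagttAAAGGGAttgatgca
A match is a description of letters, and none was tested as a binding site.

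In the eye the 46 transcripts spanned about 2 orders of magnitude, and the subunits stood well above the assembly factors. Ndufa4 had the highest level in 11 of 11 libraries, at 368 ± 90.8 FPKM in WT and 358 ± 42.2 FPKM in KO. By the mean over all 11 libraries Ndufb9, a small accessory subunit of the membrane arm, came next. Its level was 150 ± 56.0 FPKM in WT and 134 ± 27.2 FPKM in KO, where it was not the highest subunit. The 36 subunits ran from 16.2 to 150 FPKM in WT with a median of 74.8 FPKM, and the median in KO was 67.9 FPKM. The 8 assembly factors ran from 7.48 to 14.96 FPKM in WT with a median of 10.1 FPKM, and from 5.63 to 15.3 FPKM in KO with a median of 9.86 FPKM. Ndufa4l2 was lowest in 11 of 11 libraries, at 3.83 ± 0.970 FPKM in WT and 3.30 ± 0.898 FPKM in KO. Over all libraries the median subunit was at 7.17 times the median assembly factor.

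**Figure D1:**
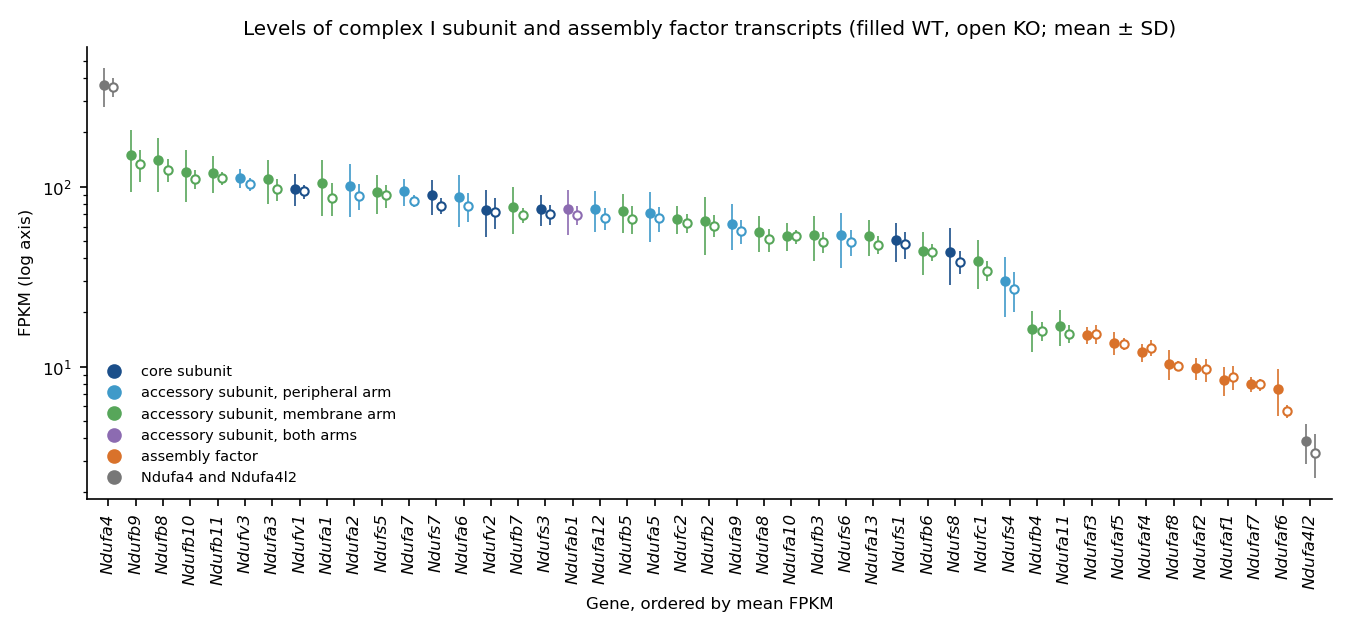
Mean FPKM (log axis) of 45 of the 46 genes in WT (filled, n = 5) and KO (open, n = 6) libraries, with the SD as bars and colours for the role in complex I. The assembly factors, at 15.3 FPKM or less, lie below nearly all subunits, and Ndufa4 and Ndufa4l2 mark the ends of the range.

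Few neighbours in the order of levels were further apart than their spread over the libraries. Of the 45 pairs of neighbours in the order of mean FPKM, 5 differed by more than the larger SD of the pair over the 11 libraries. These were Ndufa4 above Ndufb9, Ndufs4 above Ndufb4, Ndufaf3 above Ndufaf5, Ndufaf4 above Ndufaf8, and Ndufaf6 above Ndufa4l2. The SD includes variation that neighbours share, so that it is not a measure of how stable their order is within libraries. Ndufb8 was above Ndufb10 and Ndufc1 above Ndufs4 in 11 of 11 libraries without passing it. Ndufaf3 was above Ndufaf5 in 9 of 11. The step from Ndufs4 to Ndufb4 separates 34 subunits from the remaining ones, Ndufb4 and Ndufa11. In every one of the 11 libraries all 8 assembly factors were below these 34 subunits, with a highest assembly factor value of 17.5 FPKM and a lowest subunit value of 20.5 FPKM. In 3 libraries they were below all 36. The position of Ndufb4 is uncertain, because a processed copy, Ndufb4c, matches it over 390 bases at 100% identity. Read pairs assigned to Ndufb4c came to 18.5 to 37.9 CPM, more than the 9.98 to 17.8 CPM assigned to Ndufb4 itself. For 3 genes (Ndufb2, Ndufb8 and Ndufb9) an exon overlaps that of another gene on the same strand, so that some of their read pairs could belong to the neighbour. For 17 genes an exon overlaps one on the opposite strand, where the same holds if the counting did not use strand. These overlaps are those of Gencode M21, whereas the reads were assigned to genes of release M4.

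Across libraries the subunits varied together. The median subunit stood at 6.11, 5.93, 5.23, 5.68 and 5.38 log2 CPM in WT replicates 1 to 5. In the KO libraries the same median ran from 5.30 to 5.83 with a middle value of 5.48, the highest being replicate 1. WT replicates 1 and 2 and KO replicate 1 were thus the highest of all, the WT libraries of the age series overlapped the KO libraries, and WT replicate 3 was the lowest of all. Together the 36 subunits took 1715 to 3098 CPM of a WT library and 1815 to 2587 CPM of a KO library. The 8 assembly factors took 100.1 to 121.8 CPM and 98.5 to 114.5 CPM. Their median ran from 3.49 to 3.88 log2 CPM in WT and from 3.51 to 3.81 log2 CPM in KO libraries, a narrower span than that of the subunits.

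**Figure D2:**
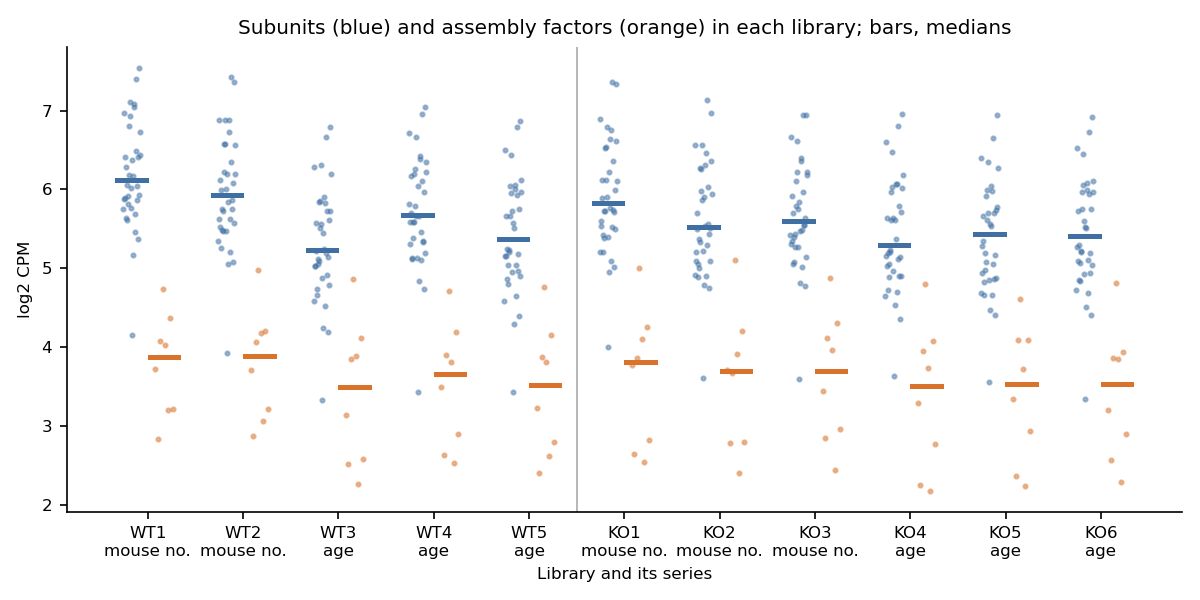
Levels (log2 CPM) of 35 of the 36 subunits (blue points) and 8 assembly factors (orange points) in each WT and KO library, with medians over all 36 and all 8 as bars and the library series under each name. The subunit median is highest in WT replicates 1 and 2 and KO replicate 1 and lowest in WT replicate 3, and the assembly factor medians stay between 3.49 and 3.88.

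Pearson's r of each gene with the median of the other subunits over the 11 libraries, given as a description since the libraries share depth and tissue makeup, exceeded 0.8 for 34 of 36 subunits and 3 of 8 assembly factors. It was highest for Ndufb8, an accessory subunit of the membrane arm, at 0.99. The share of all tested genes with an r above 0.8 is not given here. The shared variation is therefore not shown to be particular to complex I. The subunit that followed the others least was Ndufv3, a small accessory subunit of the NADH-oxidizing end, with r = 0.44. Ndufv3 was singled out after its values had been seen. Its levels were 86.9, 73.0, 73.2, 81.6 and 69.2 CPM in WT replicates 1 to 5 and 61.5 to 77.1 CPM in KO libraries with a median of 70.8. Its highest library was at 1.41 times its lowest, whereas the median subunit gene spanned 1.89 times and Ndufb9 2.38 times. Among the assembly factors r was lowest for Ndufaf4 at 0.15 and Ndufaf3 at 0.38, which bind each other and act early on the peripheral arm, and highest for Ndufaf6 at 0.88.

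The markers of muscle and fat, and less closely those of cornea and conjunctiva, moved with this shared level, and those of rods and less closely cones moved against it. WT replicates 1 and 2 and KO replicate 1, highest in subunits, had 8427, 7808 and 8385 CPM of skeletal muscle markers, against 875 to 4708 CPM in the other 8 libraries. Adipocyte markers were at 437, 282 and 229 CPM in the same libraries, at 132 CPM in WT replicate 4 and at 12.2 to 48.4 CPM elsewhere. Rod markers were lowest in WT replicate 1, at 27235 CPM, and highest in KO replicate 6, at 43327 CPM. Over the 11 libraries the median subunit had r = 0.83 with the log2 sum of muscle markers, 0.89 with that of adipocyte markers and -0.84 with that of rod markers, and 0.84 with the log2 sum of the 7 complex I subunits encoded in mitochondrial DNA. The r was 0.62 with the sum of cornea and conjunctiva markers and -0.60 with that of cone markers, and the median assembly factor had r = 0.74 with the former. Markers of blood, RPE and lens did not follow the median subunit closely, with r of 0.17, -0.009 and -0.04. These are descriptions over libraries that share their dissection. The part of muscle, fat or cornea in the levels of the complex I transcripts was not tested.

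**Figure D3:**
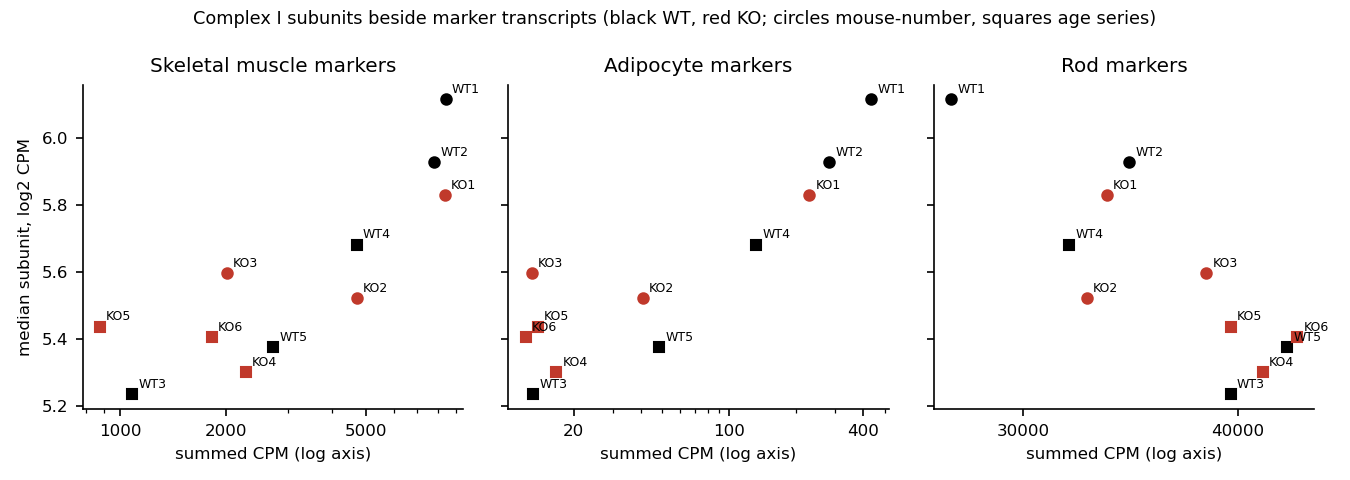
Median subunit level (log2 CPM) against the summed CPM (log axes) of 8 skeletal muscle, 8 adipocyte and 8 rod markers in the 11 libraries, with WT in black, KO in red, circles for the mouse-number series and squares for the age series. WT replicates 1 and 2 and KO replicate 1 lie at the top in each panel, with high muscle and adipocyte sums, and the rod sum falls as the subunit level rises.

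None of the 46 transcripts differed between genotypes past the adjusted test used here. Of all 15767 tested genes, 1 was called by it. The test was modelled on the study's methods, but the study reports far more differing genes than were called here. Why the outcomes differ was not tested, and the shares given below are those of the fit made here. With edgeR's likelihood-ratio test over all genes and an adjusted p-value under 0.1, 0 of the 46 were called, against 0.00634% of all tested genes, and the adjusted p-value of each was 1.00. The quasi-likelihood test of edgeR and DESeq2 also called 0 of the 46. Before adjustment 1 of the 46 was under 0.05, Ndufaf6, which was lower in KO, against 1.77% of all genes lower in KO. The direction was nearly uniform all the same. The fold change was below 0 for 45 of the 46 genes, against 48.9% of all genes, but the members share their library-to-library variation and are not independent of each other. The median log2 fold change was -0.18 for the 36 subunits and -0.06 for the 8 assembly factors, against 0.003 for all genes. The subunit median rested on single WT libraries, and was -0.04 without WT replicate 1 (35 of the 46 genes below 0, against 48.3% of all genes), -0.12 without WT replicate 2 and -0.28 without WT replicate 3. Without WT and KO replicate 1 together, which had the highest muscle marker sums, it was -0.13 with 42 of the 46 genes below 0 (against 49.2%), and without WT replicate 4 and KO replicate 3 together, which had the most lens transcripts, it was -0.18 with 44 below 0 (against 44.5%). For no gene did all KO libraries lie on the same side of all WT libraries (0 of 46, against 0.184% of all genes), and after subtracting the median subunit of each library the count was again 0 of 46, against 0.0571%.

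**Figure D4:**
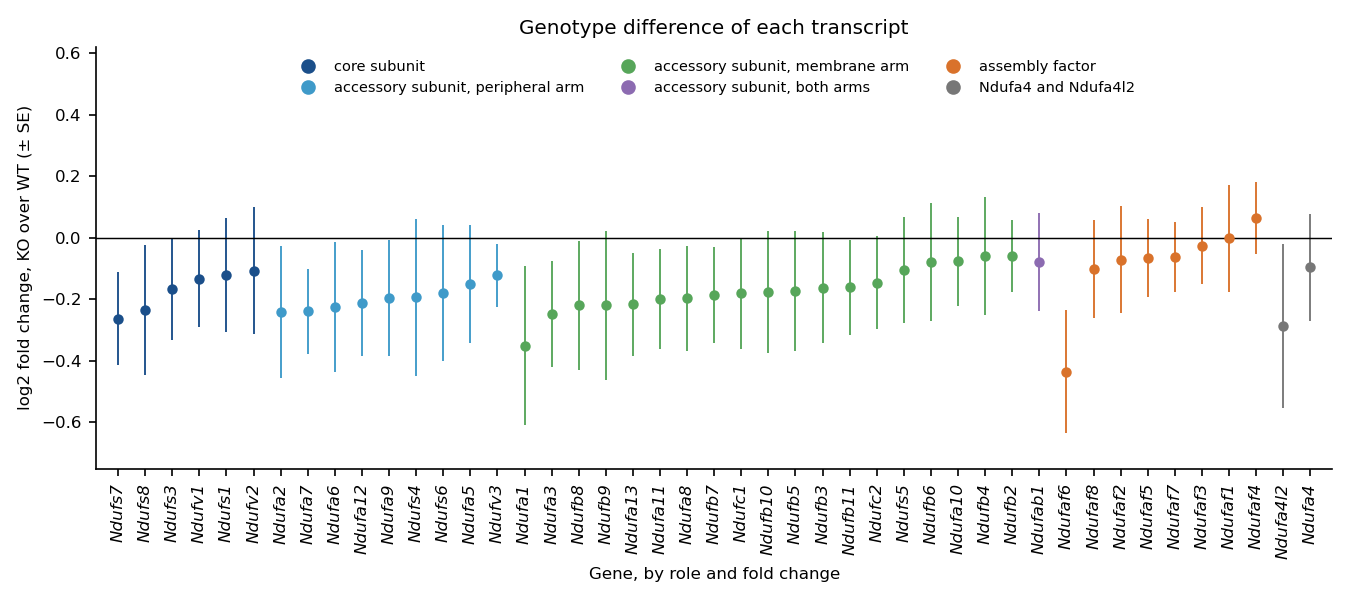
Log2 fold change of KO over WT for 45 of the 46 genes by role, with the standard error as bars. Nearly all points lie below 0, most within -0.26 and -0.06, and Ndufaf6, at -0.43, and Ndufa1, at -0.35, lie lowest with wide bars.

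The 7 nuclear core subunits, which hold the flavin, the iron-sulfur clusters and the ubiquinone site, had fold changes between -0.26 and -0.11 on the log2 scale, none past the test. Ndufs7, which carries the last cluster before ubiquinone, had the smallest p-value among them. Its levels were 85.4, 67.5, 48.8, 62.3 and 53.9 CPM in WT replicates 1 to 5 and 45.5 to 63.4 CPM in KO libraries with a median of 52.9. Only WT replicates 1 and 2 lay above all KO libraries, and the groups overlapped. Its difference was -0.26 on the log2 scale (SE, the standard error of the fit, 0.15, unadjusted p = 0.0808 by edgeR's likelihood-ratio test, and p = 0.134 by a two-sided exact permutation test over all 462 splits). Ndufs8, which holds the clusters next to it, stood at 61.0, 47.6, 27.6, 36.4 and 29.7 CPM in WT and at 29.3 to 45.2 CPM in KO libraries, and differed by -0.24 (log2, SE 0.21, p = 0.416 by exact permutation). In Ndufs8, WT replicate 3 was below the lowest KO library. Ndufs3, another core subunit of the peripheral arm, differed by -0.17 (SE 0.16) and Ndufs1, the largest subunit of the NADH-oxidizing end, by -0.12 (SE 0.19) on the log2 scale. Ndufv1, which binds NADH and the flavin, differed by -0.13 (SE 0.16) and its partner Ndufv2 by -0.11 (SE 0.21) on the log2 scale.

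In the peripheral arm all 9 had a fold change below 0, from -0.24 to -0.12 with a median of -0.19, and none reached an unadjusted p-value under 0.05. Ndufa7 had the smallest p-value of all subunits. Its levels were 56.0, 44.2, 34.7, 48.0 and 36.9 CPM in WT replicates 1 to 5 and 32.02 to 41.7 CPM in KO libraries with a median of 37.3. WT replicates 1, 2 and 4 lay above all KO libraries and the remaining ones among them, and the difference was -0.24 on the log2 scale (SE 0.14, unadjusted p = 0.0802 by edgeR and 0.117 by exact permutation). In the membrane arm all 19 had a fold change below 0, from -0.35 to -0.06 with a median of -0.18. Ndufb9 stood at 135, 118, 56.9, 83.9 and 64.3 CPM in WT and at 63.0 to 108 CPM in KO libraries, and its difference of -0.22 on the log2 scale (SE 0.24) was smaller than its error. Ndufab1 differed by -0.08 on the log2 scale.

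Ndufa1 and Ndufb11, both small membrane-arm subunits, lie on the X chromosome, and the groups differ in sex as stated above. Ndufa1 stood at 53.6, 40.5, 24.0, 56.3 and 24.0 CPM in WT replicates 1 to 5 and at 25.1 to 42.7 CPM in KO libraries with a median of 28.3. The WT libraries fell on both sides of the KO libraries, with the highest value in WT replicate 4 and the lowest in WT replicate 5. Ndufa1 varied the most of all 46 genes over the libraries (SD 0.46 on the log2 scale), and it differed by -0.35 between genotypes (log2, SE 0.26, p = 0.323 by exact permutation). WT replicate 4 is also the library with the most lens transcripts, and without it the log2 fold change of Ndufa1 was -0.20. It was -0.46 without KO replicate 3, the next in lens transcripts, and -0.29 without both. The part of lens tissue in this value was not tested. Ndufb11 stood at 138, 118, 79.3, 101 and 86.3 CPM in WT and at 81.7 to 111 CPM in KO libraries, and differed by -0.16 (log2, SE 0.15, p = 0.379 by exact permutation).

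**Figure D5:**
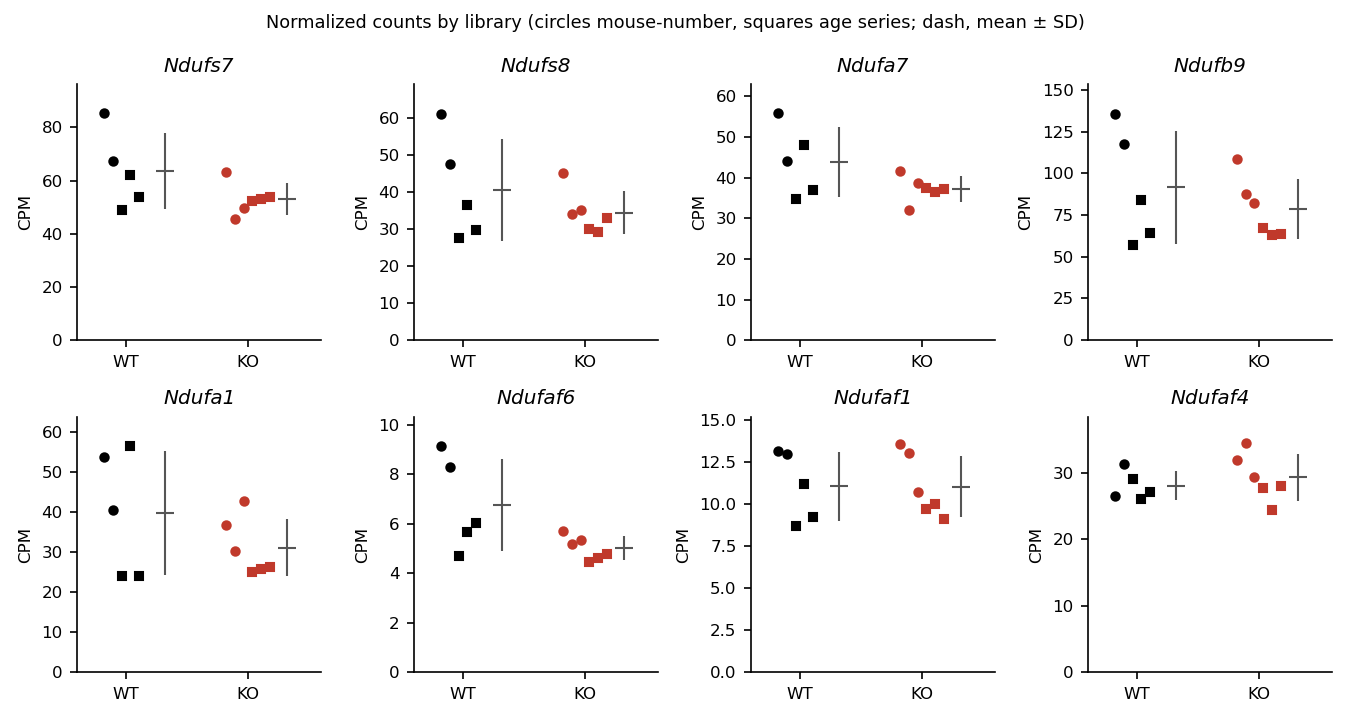
CPM of 8 genes in the WT (black) and KO (red) libraries, with circles for the mouse-number series, squares for the age series, and a dash with a bar for the mean and SD of each group. In Ndufaf6 the KO libraries stay between 4.45 and 5.73 CPM while WT replicates 1 and 2 reach 9.15 and 8.28, and in Ndufaf4 the KO libraries, from 24.4 to 34.4 CPM, extend beyond the WT libraries on both sides.

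Of the 8 assembly factors 7 had fold changes between -0.10 and 0.06, and Ndufaf6 had the lowest of all 46 genes. Ndufaf6, an early-acting factor needed for the part of the enzyme that contains a mitochondrially encoded subunit, had 9.15, 8.28, 4.71, 5.67 and 6.05 CPM in WT replicates 1 to 5 and 4.45 to 5.73 CPM in KO libraries with a median of 4.99. WT replicates 1, 2 and 5 lay above all KO libraries, and WT replicates 3 and 4 among them. On the log2 scale the difference was -0.43 (SE 0.20, unadjusted p = 0.0298 and adjusted p = 1.00 by edgeR's likelihood-ratio test, p = 0.0390 by exact permutation), which is not past the adjusted threshold. Without WT replicate 1 the log2 fold change was -0.30 (unadjusted p = 0.119 by edgeR), and without WT replicate 2 it was -0.35 (unadjusted p = 0.102 by edgeR). Relative to the median subunit of the same library, Ndufaf6 differed by -0.24 on the log2 scale, and its groups overlapped with all libraries kept. With WT replicate 4 left out they no longer overlapped on that scale, KO being lower, as in 0.0317% of all genes. WT replicate 4 was the only library whose removal alone did so. At about 5 to 9 CPM Ndufaf6 was among the lowest of the 46 genes, where 1 CPM corresponds to as few as 20.3 read pairs.

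Ndufaf4 was the 1 gene of the 46 with a fold change above 0. It stood at 26.6, 31.4, 29.1, 26.1 and 27.1 CPM in WT and at 24.4 to 34.4 CPM in KO libraries with a median of 28.7, so that the KO range contained the WT range, and the log2 fold change of 0.06 (SE 0.12) was smaller than its error. Ndufaf3, its partner, stood at 16.9, 16.6, 14.3, 14.9 and 14.6 CPM in WT and at 12.6 to 17.3 CPM in KO libraries, a log2 difference of -0.03 (SE 0.13). Ndufaf1, part of the complex that builds the membrane arm, stood at 13.1, 13.0, 8.68, 11.2 and 9.24 CPM in WT and at 9.14 to 13.6 CPM in KO libraries. Its p-value by the exact permutation test was 0.978, the highest of the assembly factors. Ndufaf5, which hydroxylates Ndufs7, differed by -0.07 (SE 0.13), and its partner Ndufaf8 by -0.10 (SE 0.16) on the log2 scale. Ndufaf7, a methyltransferase, had the steadiest level of all 46 genes, 17.2 to 20.6 CPM in WT and 15.3 to 19.7 CPM in KO libraries, for a log2 difference of -0.06 (SE 0.11). Ndufaf2, a relative of the accessory subunit Ndufa12, differed by -0.07 (SE 0.17) on the log2 scale.

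Of the genes outside complex I that carry the family name, Ndufa4 stood at 220, 192, 121, 157 and 135 CPM in WT and at 132 to 186 CPM in KO libraries, and differed by -0.10 (log2, SE 0.17, p = 0.671 by exact permutation). Ndufa4l2 stood at 4.61, 3.07, 2.94, 4.87 and 2.45 CPM in WT and at 1.98 to 4.27 CPM in KO libraries, and differed by -0.29 (log2, SE 0.27, p = 0.297 by exact permutation). The former difference was smaller than its SE and the latter about equal to it.

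The fold changes were further from 0 in the mouse-number series than in the age series, although no gene's difference between the series passed an adjusted test. In the mouse-number series (2 WT and 3 KO libraries) the median log2 fold change of the subunits was -0.35, all 36 were below 0 (against 49.5% of all genes), and 17 of the 46 genes reached an unadjusted p-value under 0.05, all of them lower in KO, against 2.65% of all genes lower in KO. Of the 46, 0 had an adjusted p-value under 0.1 (smallest 0.999 by edgeR), against 0.0444% of all genes. The 17 genes included Ndufs7 (log2 fold change -0.53), Ndufs8 (-0.51) and Ndufaf6 (-0.69). In that series the 8 muscle markers summed to 7808 and 8427 CPM in WT and to 2008, 4707 and 8385 CPM in KO libraries, and the adipocyte markers to 282 and 437 CPM and to 13.0, 40.9 and 229 CPM. In the age series (3 WT and 3 KO libraries) the median was -0.07, 29 of 36 subunits were below 0 (against 49.2% of all genes), and 0 of the 46 genes reached an unadjusted p-value under 0.05, against 3.46% of all genes lower in KO. An adjusted p-value under 0.1 was reached by 0 of the 46, against 0.241%. There the muscle markers summed to 1082 to 4708 CPM in WT and 875 to 2276 CPM in KO libraries. The interaction of genotype and series, a fit added after the data had been seen, had an unadjusted p-value under 0.05 in 3 of the 46 genes (Ndufs7, Ndufs8 and Ndufaf8), against 2.71% of all genes, and an adjusted p-value under 0.1 in 0, against 0.019%. With the series as a covariate 10 of the 46 had an unadjusted p-value under 0.05, all lower in KO, against 5.23% of all genes lower in KO, and 0 passed the adjusted threshold, against 0.0634% (smallest adjusted p = 0.312 by edgeR, for Ndufaf6). The part of muscle, fat and cornea in these values was not tested.

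By their medians, the genes of the rest of the respiratory chain had fold changes of a like size. The 7 complex I subunits encoded in mitochondrial DNA, whose summed level ran from 11294 to 20732 CPM in WT and from 9961 to 18899 CPM in KO libraries, were all below 0 with a median of -0.18. Of 41 tested genes of complexes II to V all had a fold change below 0, with a median of -0.19, and 0 reached an unadjusted p-value under 0.05. Their range, from -0.73 to -0.002 with both ends in complex IV, was wider than that of the 36 subunits, from -0.35 to -0.06. By complex the medians were -0.16 for complex II, -0.21 for complex III, -0.20 for complex IV and -0.15 for complex V. The 8 tested assembly factors of complex I with other names, such as those of the membrane-arm assembly complex, had a median of -0.02, with 5 below 0 and 3 above, and none reached an unadjusted p-value under 0.05. By their medians, assembly factors of either naming stood nearer to 0 than the subunits. The skeletal muscle markers were lower in KO in 8 of 8 (median -0.54) and the 6 tested adipocyte markers in 6 of 6 (median -1.97), 0 of them past the adjusted threshold, and the rod markers were higher in 7 of 8 (median 0.10). Blood markers were lower in KO in 5 of 5 (median -0.63) and the tested lens markers in 6 of 6 (median -2.19), again 0 past that threshold. Those of cones, RPE, and cornea and conjunctiva went in both directions (medians 0.002, -0.02 and -0.11). Of these markers Cfd (log2 fold change -2.12, unadjusted p = 0.0371 by edgeR) and Retn (-0.87, unadjusted p = 0.00810 by edgeR), both products of fat cells, had an unadjusted p-value under 0.05, as had the lens genes Bfsp1 (-3.99, unadjusted p = 0.0221 by edgeR) and Bfsp2 (-2.92, unadjusted p = 0.0346 by edgeR).

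Promoters are shown because the subunits varied together. RefSeq promoter windows (GRCm38.p6, 250 bases before to 50 after the transcription start) were matched for 40 of the 46 genes, and among those not matched were Ndufa2, Ndufa4l2, Ndufb9, Ndufaf6 and Ndufs1. Both strands were searched for fixed letters, and matches of different motifs were counted separately. A gene was counted if any of its windows held a match. The genes used for comparison, 27025 in all, were not restricted to those that passed the filter here. The NRF1 motif (the letters GCGCA and GCGC with any 1 base between them) is bound by a regulator of many nuclear genes of mitochondrial proteins. It was found in 9 of 40 genes (22.5%), against 5.19% of all 27025 genes. The YY1 motif (AAGATGGC) was found in 8 of 40 (20%), against 3.19%. An ETS motif (CCGGAAG) was found in 15% of the 40 genes, against 9.93% of all 27025 genes. The SP motif (GGGCGG) was in 52.5% against 38.2%, and a cAMP response element (TGACGTCA) in 7.50% against 2.03%. The motif of the oestrogen-related receptors, AAGGTCA, was in 7.50% against 5.38%. A TATA motif (TATAAA) was in 10% against 15.7% and an E-box, spelled CACGTG, in 5% against 8.09%. Stretches around a match are printed for genes of different roles, on the strand of the gene and with the match in capitals, the first lines for NRF1 and those from Ndufb8 on for YY1.
Ndufa6 (chr15:82354249-82354278, - strand): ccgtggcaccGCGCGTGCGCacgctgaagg
Ndufa8 (chr2:36049349-36049378, - strand): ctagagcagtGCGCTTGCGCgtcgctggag
Ndufs6 (chr13:73328479-73328508, - strand): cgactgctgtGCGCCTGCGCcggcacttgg
Ndufaf4 (chr4:24897960-24897989, + strand): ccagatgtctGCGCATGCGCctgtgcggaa
Ndufb8 (chr19:44555393-44555414, - strand): ggagaaggtgAAGATGGCtgcc
Ndufs4 (chr13:114388045-114388069, - strand): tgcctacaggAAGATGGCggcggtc
Ndufs6 (chr13:73328433-73328459, - strand): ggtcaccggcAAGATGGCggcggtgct
Ndufaf8 (chr11:120098934-120098961, + strand): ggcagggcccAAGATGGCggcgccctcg
Ndufs6 holds both motifs. The printed YY1 matches lie after the transcription start, from base 39 in Ndufb8, 36 in Ndufs4, 34 in Ndufs6 and 11 in Ndufaf8. Their letters include ATG, and whether they overlap a start codon was not tested. Ndufaf4, which followed the subunits least (r = 0.15), holds the NRF1 letters as Ndufa6, Ndufa8 and Ndufs6 do, whose r were 0.93, 0.94 and 0.96. The remaining genes with these letters had r from 0.75 to 0.96. A match describes letters, and none was tested as a binding site. The part of these motifs in the shared variation was not tested.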

How the data were processed

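The authors assigned the 100-nt paired reads of each library to genes of Gencode release M4 (GRCm38) with RSEM 1.2.19 and deposited expected counts, which are estimated read pairs without scaling, and FPKM values. Symbols were taken from release M21. Expected counts were rounded, genes that reached 1 CPM in 5 or more of 11 libraries were kept, and genotypes were compared with edgeR 4.0.16 in R 4.3.3 (TMM factors, glmFit and glmLRT, genotype only), with Benjamini-Hochberg adjustment over 15767 genes and a threshold of 0.1, as in the study's methods. Log2 CPM used a prior count of 2. FPKM entered no test. Single genes were also compared by two-sided exact permutation over 462 splits, unadjusted (smallest possible p = 0.00216). Scripts were tested on simulated data. At the lowest total, 1 CPM is about 20.3 read pairs. Libraries were matched to the series by proportional counts over 63 genes.

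Named genes were the core subunits, the Ndufaf genes, X-linked members, Ndufa4, Ndufa4l2, the 3 highest and 3 lowest in FPKM and the 3 smallest p-values, and from other lists genes with an unadjusted p under 0.05. Members, lists and motifs were chosen with earlier results of these data known. The labels do not say that libraries sharing a replicate number share a litter or batch, so the number was used only in an alternative. Alternatives were the quasi-likelihood test, DESeq2 1.42.0, other scalings and filters, unrounded counts, blocks, the library series and libraries left out. Of the genes that the rule names, 1 is not reported here.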

Additional observations from a re-analysis of the deposited data

Results flagged for a closer look

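In 1 of 96 groups of libraries tested for a single library far from the rest (the 46 genes and the medians of subunits and of assembly factors, in WT and in KO), the gap passed Dixon's limit. Ndufv1 was at 7.33 log2 CPM in KO replicate 1, against 6.92 to 6.97 in the other KO libraries, a gap of 0.874 of the group's range. Chance flags about 1 in 20 such groups. KO replicate 1 is also the KO library with the highest sums of muscle and adipocyte markers, at 8385 and 229 CPM, and their part in this value was not tested.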

How the results depend on the processing

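Under every alternative 0 of the 46 genes had an adjusted p-value below the threshold, the stricter 0.05 included (edgeR's likelihood-ratio and quasi-likelihood tests and DESeq2, which gave 1, 1 and 1 of the 46 an unadjusted p-value under 0.05, in each case lower in KO, against 1.77%, 1.88% and 2.21% of all genes lower in KO). The median log2 fold change of the subunits stayed below 0, from -0.35 within the mouse-number series to -0.04 without WT replicate 1, where 35 of the 46 genes were lower in KO. Libraries left out in turn moved the number of members with an unadjusted p-value under 0.05, all lower in KO, between 0, without WT replicate 1, WT replicate 2 or KO replicates 4, 5 or 6 (against 0.844% to 1.97% of all genes lower in KO), and 6, without WT replicate 3 (against 3.27%). It was 4 without WT replicate 5 (2.50%) and 2 without KO replicate 1 (3.75%). That number was 0 without TMM factors (1.2%), within the age series (3.46%) and without WT and KO replicate 1 together (1.72%), 10 with the series as covariate (5.23%) and 17 within the mouse-number series (2.65%). The cause was not tested.

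Directions turned in genes whose fold changes were smaller than their SE. Ndufaf1 was at 0.045 without TMM factors, 0.0035 with the filter of 1 count in any library, 0.0036 without WT and KO replicate 1 together and 0.020 without WT replicate 4 and KO replicate 3 together, the last chosen after seeing the data, and between -0.077 and 0.068 with libraries left out in turn. Ndufaf3 was at 0.021 without TMM factors, 0.022 without WT and KO replicate 1 together and 0.10 within the age series, and between -0.067 and 0.023 with libraries left out. Within the age series Ndufv1 was at 0.040, Ndufaf4 at -0.034 and Ndufaf8 at 0.11. With libraries left out Ndufv2 ran from -0.22 to 0.030 and Ndufa4 from -0.19 to 0.029, above 0 without WT replicate 1. The number of genes without overlap relative to the median subunit ran from 0 to 1 (Ndufaf6, lower in KO, without WT replicate 4, against 0.0317% of all genes below and 0.140% above), and that of genes with a seed match was 1 over all transcripts.

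Whether replicate numbers pair the libraries was not settled. Deviations of same-numbered libraries correlated above 0.1 in 3 of 5 pairs (r from -0.33 to 0.63), and 3 of 5 WT libraries correlated best with their own number. The r was 0.54, 0.63 and 0.53 for replicates 1, 2 and 5, and -0.33 and -0.26 for replicates 3 and 4. Replicate 3 is in the age series in WT and in the mouse-number series in KO, and pairing was not told apart from series. With the number as a replicate block and KO replicate 6 left out, 0 of the 46 genes had an adjusted p-value under 0.1 and 0 an unadjusted p-value under 0.05 (against 0.0634% and 2.71% of all genes by edgeR), the subunit median was -0.12, and Ndufaf1 was at 0.054. Summing Ndufb4 with its copy, added after seeing the data, gave -0.095 in place of -0.029 for the difference of mean log2 CPM.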
